A study of Mus musculus with 6 samples.

Results

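The miR-193 and miR-365 microRNAs come from hairpins that lie side by side at a pair of places in the mouse genome, and their 7 mature forms were taken by name from a table of 1028 microRNAs. They are miR-193a-5p, miR-193a-3p, miR-193b-5p, miR-193b-3p, miR-365-1-5p, miR-365-2-5p and miR-365-3p. Small-RNA sequencing counted them in a mouse epicardial cell line kept in culture, labelled both MEC and MCEC, grown in high-glucose medium with serum. The EV group (3 libraries) received a lentivirus with an empty vector. The KO group (3 libraries) received a lentivirus with a guide RNA against Hdac3, the gene of a histone deacetylase of repressor complexes, for CRISPR/Cas9 knockout. The labels do not say whether the KO cells were 1 clone or a pool, or whether replicates were separate cultures. Each p-value therefore refers to the spread between these libraries, which may be technical.

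A microRNA is cut from one side of a hairpin precursor, the 5p or the 3p arm, and loaded into an Argonaute protein. It represses messenger RNAs that pair with its seed, a short stretch near its 5′ end. Duplicated clusters such as these give paralogous microRNAs whose products can share targets. The miR-193b and miR-365 cluster has been studied in brown fat, where it was reported to favour brown adipocytes over muscle by repressing Runx1t1. The miR-193 3p arms are known to repress growth-promoting genes such as Kit and Mcl1.

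The mature sequences, from RefSeq (GRCm38.p6), matched all 7 names. They are shown because the seeds tell which members can pair with the same target sites. Seeds (bases 2 to 8, counted from the 5′ end) are in capitals.
miR-193a-3p: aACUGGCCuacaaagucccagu
miR-193b-3p: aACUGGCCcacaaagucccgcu
miR-193a-5p: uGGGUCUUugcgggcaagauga
miR-193b-5p: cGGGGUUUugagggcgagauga
miR-365-1-5p: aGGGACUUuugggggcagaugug
miR-365-2-5p: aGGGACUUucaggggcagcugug
miR-365-3p: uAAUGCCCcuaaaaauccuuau

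The 7 members carry 5 seeds. The miR-193 3p arms share one, and 19 of their 22 bases are the same. From miR-193a-3p to miR-193b-3p the changes are U9C, A20G and G21C, positions counted from the 5′ end, with 0 in the seed. The miR-365 5p arms also share a seed and 20 of 23 bases, and the changes from miR-365-1-5p to miR-365-2-5p are U10C, G11A and A19C. The miR-193 5p arms differ at 5 of 22 bases, and 2 of these changes, U5G and C6U from miR-193a-5p to miR-193b-5p, fall in the seed. In the RefSeq table no mature mouse microRNA outside the members has any of these seeds.

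Mir193a (chromosome 11, 79711969 to 79712034) and Mir365-2 (79726400 to 79726511) lie on the plus strand, 14365 bases apart, and overlap no other gene of the GENCODE M21 annotation (GRCm38). Mir193b (chromosome 16, 13449523 to 13449601) and Mir365-1 (13453840 to 13453926) lie on the plus strand, 4238 bases apart, within an intron of the antisense gene Gm15738 on the minus strand. Mature miR-365-3p is the same in both miR-365 hairpins, so its reads cannot be assigned to a cluster. The 5p arms of miR-365, like both arms of the miR-193 hairpins, belong to 1 hairpin each.

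The members were a small part of these libraries. Library totals ran from 11824881 to 13412774 counts, and the 7 members together held 6139 reads, or 0.00718% to 0.00981% of a library. Levels are given in CPM, counts per 1000000 of the library total after TMM scaling, on which 1 read is worth 0.0637 to 0.0892 CPM. Hdac3 itself is not measured by small-RNA libraries, so the knockout was not checked here. The 5 mesenchymal markers, among them miR-21a-5p and miR-143-3p, summed to 589500 to 837500 CPM in EV and 761500 to 833900 CPM in KO. miR-21a-5p alone held 63.01% to 70.13% of the counts of a library, so this sum is mostly that microRNA. White blood cell markers summed to 0.164 to 1.55 CPM over the libraries. Muscle markers summed to 26.3 to 27.2 CPM in EV and 21.05 to 25.05 CPM in KO, with 0 called. Endothelial markers summed to 36.6 to 42.1 CPM in EV and 34.7 to 35.4 CPM in KO, with 0 called. The 5 epithelial markers of the miR-200 family did differ, with sums of 41.4 to 50.03 CPM in EV and 25.3 to 27.3 CPM in KO, and 2 of the 4 tested were called lower in KO. Their part in the results was not tested. EV 3 and KO 2 stood apart in a red blood cell and a neural microRNA. The red blood cell microRNA miR-451a was at 54.7 CPM in EV 3 and 62.7 CPM in KO 2 against 0.243 to 2.45 CPM elsewhere. The neural miR-9-5p was also highest in EV 3 and KO 2, at 51.4 and 57.1 CPM. EV 1 stood apart in other ways, with the lowest share of miR-21a-5p (63.01%) and the highest TMM factor (1.226, against 0.919 to 1.036 elsewhere). In bulk libraries, fewer cells of a type and less RNA per cell cannot be told apart.

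None of the 7 miR-193 and miR-365 microRNAs passed the test between KO and EV cells. miR-365-3p and miR-193b-3p were the main products, at means of 31.3 and 30.7 CPM over the 6 libraries, ranks 174 and 179 of 1028 microRNAs. The changes between KO and EV ran from -0.11 for miR-193a-5p to 0.35 for miR-193b-5p on the log2 scale. The 95% intervals of the rarest arms are wide, at 0.85-fold to 1.91-fold for miR-193b-5p and 0.69-fold to 1.60-fold for miR-193a-3p. Those of the abundant miR-365-3p and miR-193b-3p run from 0.76-fold to 1.29-fold and from 0.77-fold to 1.21-fold. The SE of the log2 change was larger for miR-365-3p (0.17) than for the less abundant miR-193a-5p and miR-365-1-5p (0.14 each).

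The test was edgeR's two-sided quasi-likelihood test over all 460 microRNAs that passed a filter on low counts, with Benjamini-Hochberg adjustment at 0.05. All 7 members passed the filter. edgeR called 0 of them, with 0 at an unadjusted p under 0.05. DESeq2 called 0 and limma-voom 0, again with 0 each at an unadjusted p under 0.05. DESeq2 gave 5 of the 7 no adjusted p. Over all tested microRNAs 7.61% were called, 23 of them (5%) higher and 12 (2.61%) lower in KO, and 23% had an unadjusted p under 0.05. That count of 35 fell to 23 or 16 without EV 1 or EV 2, rose to 59 without EV 3, and was 16, 15 and 19 without KO 1, KO 2 and KO 3. The number of members called stayed at 0 in each of these fits. The authors' deposited table lists 78 microRNAs with adjusted p up to 0.0488, and 0 of the members are among them. Of the 7 log2 changes, 4 lay above 0 and 3 below (51.7% of all tested microRNAs lay below), with a median of 0.08 against -0.01 over all tested microRNAs. Scaling by library size alone, which moved the median of all tested microRNAs to -0.16, gave 2 above and 5 below.

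**Figure D1:**
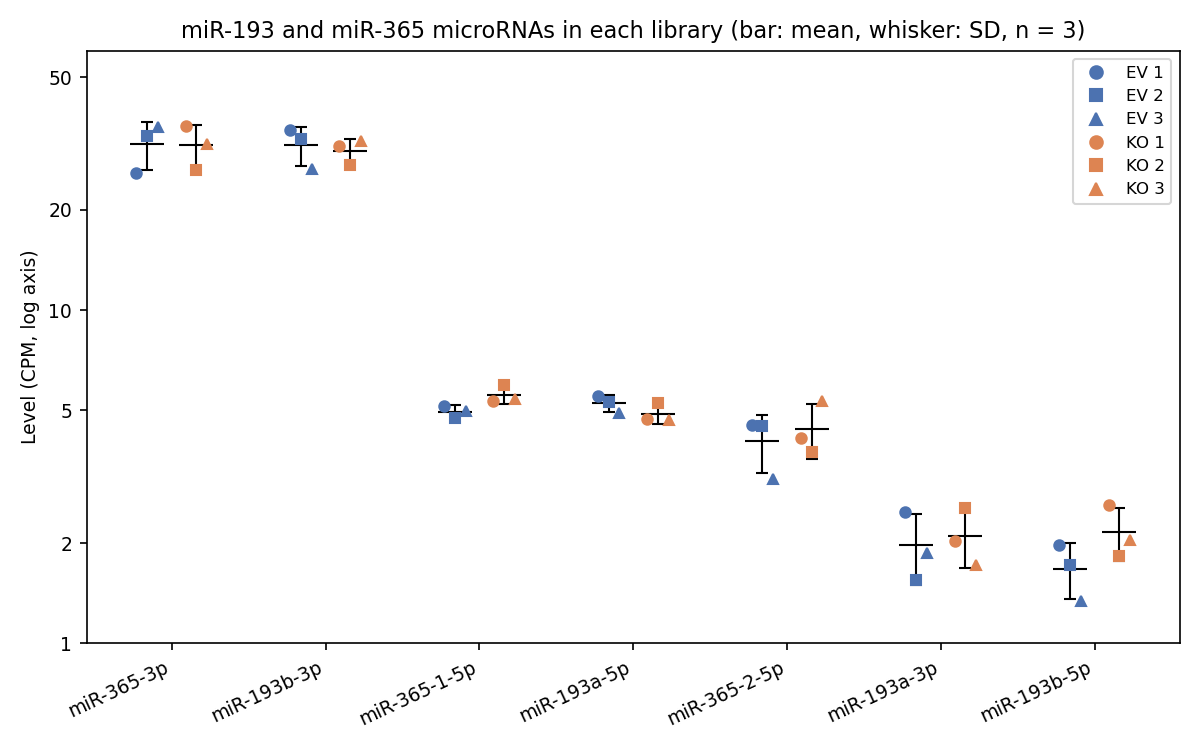
Level of each microRNA in CPM (log axis) in the 3 EV (blue) and 3 KO (orange) libraries, ordered by mean level, with the bar at the group mean and whiskers of 1 SD. miR-365-3p and miR-193b-3p have means of 31.3 and 30.7 CPM, the other 5 reach at most 5.98 CPM, and only for miR-365-1-5p do the 3 KO points lie above all 3 EV points, a separation that is lost with library size alone, where the log2 change is 0.0074.

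The most abundant arm was miR-365-3p, the product of both clusters. Replicates 1, 2 and 3 of EV held 25.7, 33.4 and 35.3 CPM of it, and those of KO 35.8, 26.3 and 31.5 CPM, and values of 3 libraries are given in this order from here on. The lowest and highest values lay in opposite groups and the groups overlapped throughout. Means were 31.5 ± 5.08 CPM in EV and 31.2 ± 4.73 in KO (SD, n = 3 each), a log2 change of -0.01 (SE 0.17, 95% interval -0.39 to 0.37, edgeR adjusted p = 0.973). The spread between libraries was 16.1% in EV and 15.1% in KO (coefficient of variation), above the 4.98% and 5.09% that counting alone gives. The change was 0.01, 0.08 and 0.10 without EV 2, EV 3 and KO 2, and 0.19 without EV 3 and KO 2 together, and was not called in any of these fits. The log2 change was -0.13 without EV 1 and -0.15 with library size alone, again not called.

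miR-193b-3p, the most abundant member that comes from the chromosome 16 cluster alone, had a mean within the spread of miR-365-3p. Its levels were 34.6, 32.7 and 26.5 CPM in the EV libraries and 31.1, 27.2 and 32.1 CPM in the KO libraries. All 3 KO values lay inside the EV range. The means of 31.3 ± 4.22 and 30.1 ± 2.58 CPM (SD, n = 3 each) gave a log2 change of -0.05 (SE 0.15, 95% interval -0.38 to 0.27, edgeR adjusted p = 0.862). The change was 0.03 without EV 1, 0.02 without KO 2, -0.16 without EV 3 and -0.23 with library size alone, and was not called in any of these fits. The relation of the abundant arms to each other moved from library to library within a group. miR-193b-3p took 43.2%, 38.95% and 33.9% of the members' reads in the EV libraries, and miR-365-3p took 32.2%, 39.8% and 45.3%. In KO the shares were closer together, 36.3% to 38.8% for miR-193b-3p and 36.1% to 41.8% for miR-365-3p.

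The miR-193a hairpin gave few reads of the shared seed. miR-193a-3p had 39, 19 and 21 reads in EV libraries against 25, 32 and 21 reads in KO libraries. That is 1.97 ± 0.474 CPM in EV and 2.10 ± 0.421 CPM in KO (SD, n = 3 each), with overlapping groups, a log2 change of 0.08 (SE 0.27, 95% interval -0.53 to 0.68, edgeR adjusted p = 0.904) and -0.10 and -0.08 without EV 2 and KO 2. Counting alone gives a spread of 19.5% in EV and 19.6% in KO here, close to the 24.1% and 20.1% seen. miR-193b-3p therefore made up most of the reads with this seed, 94.05% ± 1.22 in EV and 93.4% ± 1.79 in KO (SD, n = 3 each), and 91.4% to 95.5% over the 6 libraries.

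The less abundant 5p arms gave the lowest and highest changes of the members. miR-193a-5p, the main arm of its hairpin, measured 5.54, 5.31 and 4.91 CPM across the EV libraries and 4.70, 5.26 and 4.67 CPM across the KO libraries. KO 1 and KO 3 lay below all EV libraries and KO 2 among them (log2 change -0.11, SE 0.14, 95% interval -0.43 to 0.21, edgeR adjusted p = 0.666). The change was -0.06 without EV 1 and -0.27 with library size alone. miR-193b-5p, the rarest member, had 31, 21 and 15 reads with the empty vector and 32, 23 and 25 with the Hdac3 guide. In CPM the group means were 1.68 ± 0.320 and 2.16 ± 0.392 (SD, n = 3 each), and the log2 change of 0.35 had an SE of 0.26 and a 95% interval of -0.24 to 0.93 (edgeR adjusted p = 0.464). The change was 0.22 without EV 3, 0.20 without KO 1 and 0.17 with library size alone. The groups overlapped through KO 2, at 1.83 CPM, which lay below EV 1 at 1.98 CPM.

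The 5p arms of miR-365 tell its loci apart. miR-365-1-5p, from chromosome 16, measured 5.16, 4.73 and 4.997 CPM across the EV libraries and 5.35, 5.98 and 5.41 CPM across the KO libraries. All KO values lay above all EV values after TMM scaling, which gives EV 1 the highest factor (1.23). Scaled by library size alone, EV 1 was the highest library at 6.325 CPM, the groups overlapped and the log2 change was 0.0074. With TMM scaling the groups did not overlap, in either direction, for 29.1% of the microRNAs tested. The change was 1.12-fold (log2 0.17, SE 0.14, 95% interval -0.15 to 0.48, edgeR adjusted p = 0.51), and counting error alone was 12.4% per library in EV and 12.04% in KO. miR-365-2-5p, from chromosome 11, measured 4.52, 4.49 and 3.12 CPM with the empty vector and 4.14, 3.75 and 5.32 CPM with the Hdac3 guide. The extremes were EV 3 and KO 3, and the other 4 libraries of both groups lay between them (log2 change 0.11, SE 0.20, edgeR adjusted p = 0.771). The change was -0.04 without EV 3 and -0.05 without KO 3.

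In order of mean level the members were miR-365-3p, miR-193b-3p, miR-365-1-5p (5.27 CPM), miR-193a-5p (5.07), miR-365-2-5p (4.22), miR-193a-3p (2.04) and miR-193b-5p (1.92). Neighbours in this order overlapped over the 6 libraries except at a pair of steps, from miR-193b-3p to miR-365-1-5p and from miR-365-2-5p to miR-193a-3p. Mature lengths are 22 or 23 bases, but adaptor ligation favours some sequences, so an order between microRNAs also carries that preference.

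**Figure D2:**
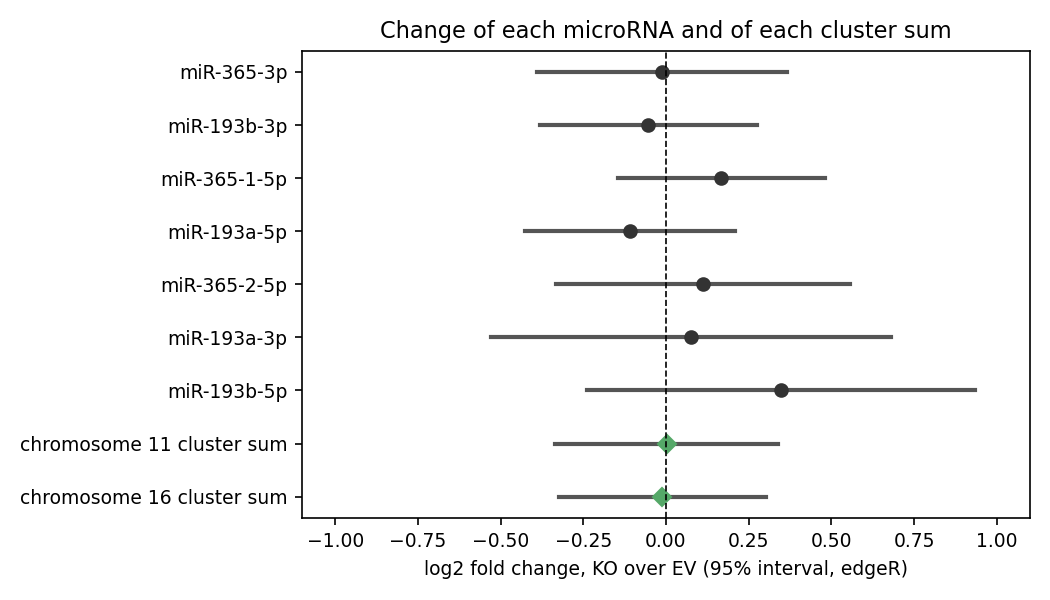
Log2 fold change of KO over EV (points) with 95% intervals from edgeR (lines) for the 7 microRNAs (black circles) and the 2 cluster sums (green diamonds). Every interval crosses 0, and the widest belong to the rarest arms, miR-193a-3p and miR-193b-5p.

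Summed by cluster, the change was near 0 on both chromosomes with TMM scaling. Neither sum, nor their ratio, holds miR-365-3p, whose reads cannot be assigned to a cluster, so the sums are not levels of whole clusters. The chromosome 11 cluster (both miR-193a arms and miR-365-2-5p) had 197, 139 and 111 reads in the EV libraries against 134, 145 and 143 reads in the KO libraries. Its sum was 11.3 ± 1.58 CPM in EV and 11.4 ± 0.497 CPM in KO (SD, n = 3 each), a log2 change of 0.0022 (SE 0.15, 95% interval -0.33 to 0.34, edgeR adjusted p = 0.989). The chromosome 16 cluster (both miR-193b arms and miR-365-1-5p) had 655, 479 and 368 reads in the EV libraries against 481, 439 and 483 reads in the KO libraries. Most of these were miR-193b-3p, with 543, 400 and 297 reads in EV and 383, 341 and 392 in KO, so this sum largely repeats that member. The sum was 38.05 ± 5.30 CPM in EV and 37.8 ± 2.76 CPM in KO (SD, n = 3 each), a log2 change of -0.01 (SE 0.14, 95% interval -0.32 to 0.30, edgeR adjusted p = 0.969). In both clusters the EV libraries spread more widely than the KO libraries and enclosed all KO values. Of all rows of the fit with cluster sums, 7.89% were called. With changes so near 0 the sign was not stable, at -0.07 and -0.0064 without EV 3 and KO 3 for chromosome 11, and 0.08, 0.01 and 0.06 without EV 1, EV 2 and KO 2 for chromosome 16. Scaled by library size alone, the log2 changes were -0.16 for chromosome 11 and -0.18 for chromosome 16. The median of all tested microRNAs was then -0.16.

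**Figure D3:**
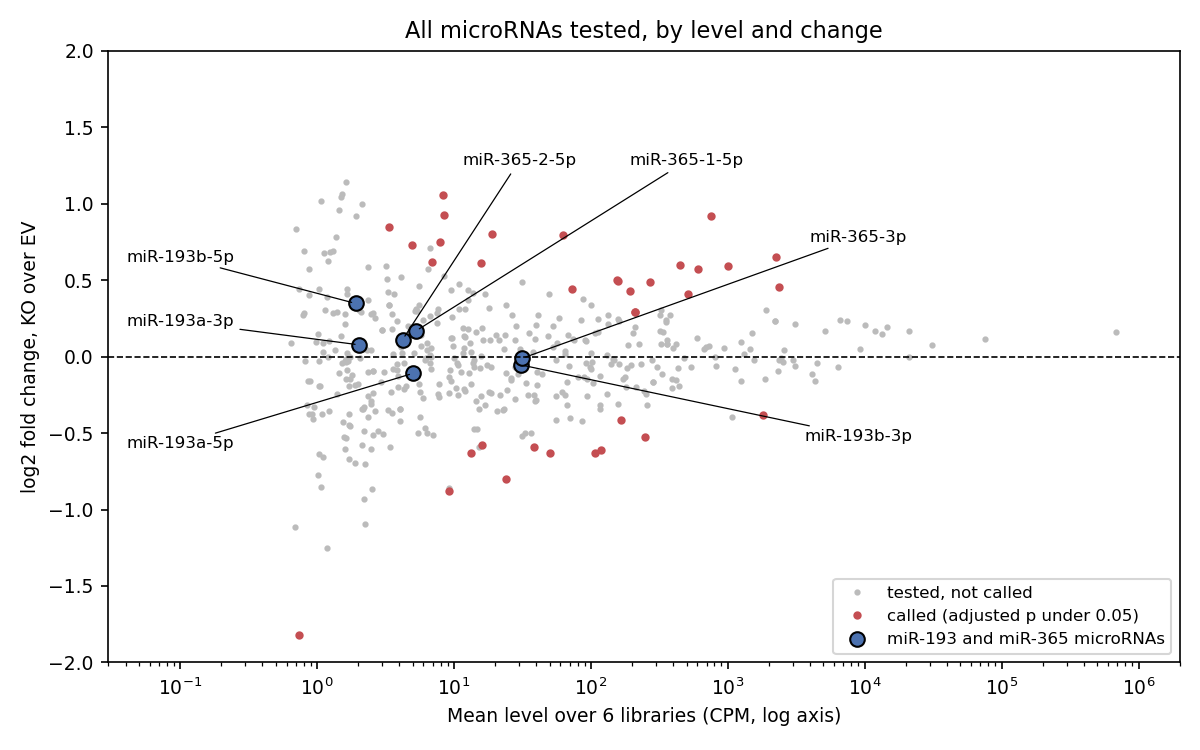
Log2 fold change of KO over EV against mean level in CPM (log axis) for the 460 microRNAs tested, with called ones in red and the 7 miR-193 and miR-365 microRNAs as blue circles. The members lie between -0.11 and 0.35, and none is among the 35 called.

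Reads of the miR-193 hairpins leaned to opposite arms. The hairpins are shown from RefSeq (GRCm38.p6, plus strand), 5′ to 3′, with the 5p and then the 3p mature arm in capitals.
Mir193a: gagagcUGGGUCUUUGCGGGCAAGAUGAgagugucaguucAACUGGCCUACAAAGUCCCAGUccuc
Mir193b: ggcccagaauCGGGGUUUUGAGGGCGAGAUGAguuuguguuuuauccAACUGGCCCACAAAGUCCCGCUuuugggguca
For miR-193a the 5p arm led in all 6 libraries, with a mean log2 ratio of 5p to 3p reads of 1.32 (range 1.03 to 1.75), or 2.50-fold more 5p. For miR-193b the 3p arm led in all 6, with a mean log2 ratio of -3.99 (range -4.26 to -3.56), or 15.9-fold more 3p. The ranges do not overlap. The arms of a hairpin differ in sequence, so these ratios also carry the preference of adaptor ligation. Of the 133 hairpin names with both arms tested, 75 had more 5p and 58 more 3p reads, and 21 leaned further towards 3p than miR-193b. For miR-365, where 5p reads of both loci were added, the 3p arm held 77.4% ± 4.397 of the reads in EV and 75.6% ± 3.12 in KO (SD, n = 3 each).

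The share of the minor arm of miR-193b was higher in each KO library than in each EV library, by a margin that did not pass the test. Its log2 ratio of 5p to 3p reads was -4.11, -4.22 and -4.26 in the EV libraries and -3.56, -3.86 and -3.94 in the KO libraries. The groups stayed apart, which held for 12% of the 133 hairpins. The difference was 0.41 (SE 0.29, 95% interval -0.21 to 1.03, limma adjusted p = 0.985). With 1 library left out it ran from 0.29 to 0.49. For miR-193a the log2 ratios were 1.15, 1.75 and 1.37 with the empty vector and 1.20, 1.03 and 1.42 with the Hdac3 guide. The groups overlapped (difference -0.20, SE 0.30, 95% interval -0.84 to 0.43, limma adjusted p = 0.985). The difference was -0.34 and -0.04 without EV 1 and EV 2, and -0.11 and -0.31 without KO 2 and KO 3. limma called 0% of the 133 hairpins and 7 had an unadjusted p under 0.05, none of them miR-193a or miR-193b, while diffSplice called 0 with 6 at an unadjusted p under 0.05.

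**Figure D4:**
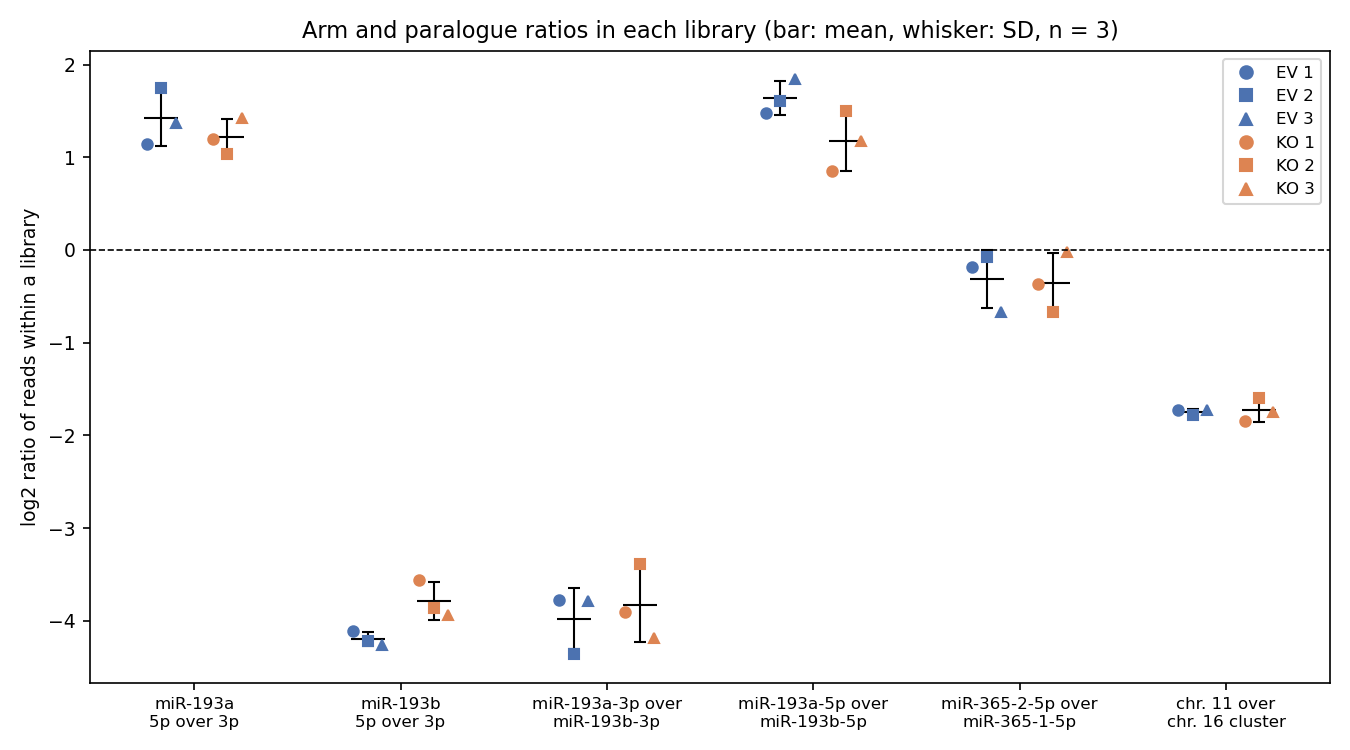
Log2 ratio of reads within each library for the arms of each miR-193 hairpin, for paralogous arms and for the cluster sums, in EV (blue) and KO (orange), with the mean and SD of 3 libraries. miR-193a lies above 0 (5p leads) and miR-193b between -4.26 and -3.56 (3p leads) in all 6 libraries, and EV and KO points overlap in every column but that of miR-193b.

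Ratios between paralogues, which need no scaling between libraries, also overlapped between EV and KO. The 4 ratios were tested by exact two-sided permutation over libraries, where 3 against 3 cannot go below p = 0.1. The ratio of miR-193a-5p to miR-193b-5p differed most, with log2 values of 1.47, 1.61 and 1.84 in the EV libraries and 0.85, 1.501 and 1.17 in the KO libraries. KO 2 lay among the EV values and KO 1 and KO 3 below them (difference -0.47, exact permutation p = 0.2, adjusted over the 4 ratios 0.8). The chromosome 11 to chromosome 16 cluster ratio was -1.75 ± 0.03 in EV and -1.73 ± 0.12 in KO (log2, SD, n = 3 each), a difference of 0.02 (exact permutation p = 0.9, adjusted p = 1). The ratio of miR-193a-3p to miR-193b-3p differed by 0.15 and that of miR-365-2-5p to miR-365-1-5p by -0.04 (exact permutation p = 0.7 and 1, adjusted p = 1 for both). The sign of these 3 small differences turned without 1 library, to -0.0014 and -0.05 for the cluster ratio without EV 2 and KO 2, and to -0.05 and -0.07 for the miR-193 3p arms without EV 2 and KO 2. For the miR-365 5p arms it turned to 0.02, 0.08 and 0.12 without EV 1, EV 2 and KO 2. The share of miR-365 5p reads from Mir365-1 was 55.4% ± 5.42 in EV and 56.1% ± 5.55 in KO (SD, n = 3 each), so both loci gave reads in every library, with between 50.4% and 61.5% from chromosome 16.

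Without EV 3 and KO 2, the libraries high in miR-451a and miR-9-5p, 88 microRNAs were called, and 0 of the 7 members. Their log2 changes in that fit were -0.12 for miR-193a-3p, -0.21 for miR-193a-5p, -0.09 for miR-193b-3p, 0.33 for miR-193b-5p, 0.12 for miR-365-1-5p, 0.07 for miR-365-2-5p and 0.19 for miR-365-3p.

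Profiles over the 6 libraries were compared by the root mean square difference of centred log2 CPM, where all points share libraries and scaling factors. Here 0.5 was added to each CPM, which shrinks distances most for members at low levels. The microRNAs nearest to miR-365-3p were miR-155-5p (0.0510), miR-329-5p (0.0839) and miR-96-5p (0.0856), against a median of 0.235 over the 247 microRNAs with at least 10 CPM. Nearest to miR-193b-3p were miR-140-3p (0.0854), miR-99b-5p (0.0859) and miR-6539 (0.0958), with a median of 0.215. Nearest to miR-193a-5p were miR-411-3p (0.0280), miR-434-3p (0.0345) and miR-92a-3p (0.0443), with a median of 0.178. The microRNAs named were picked as the smallest of the 247 distances, so their place below the median follows from that choice. Among the members the closest profiles on this measure were those of miR-193b-3p and miR-365-2-5p (0.126), which come from different clusters. Next came miR-193a-5p with miR-365-1-5p (0.135) and with miR-193b-3p (0.143), and the order of such near values depends on the 0.5 added. The farthest were those of miR-193a-3p and miR-365-3p (0.373). Counting alone gives a spread of 13.65% in EV and 13.57% in KO for miR-365-2-5p, and of 19.5% and 19.6% for miR-193a-3p. Distances between members therefore carry counting noise and do not show whether members of a cluster vary together.

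Other microRNAs known from brown fat did not move one way. Of 12 listed as promoting brown fat, 11 were tested, 2 rose, 1 fell and 8 were not called, where 7.61% of all tested microRNAs were called (5% higher, 2.61% lower). The median log2 change of the list was 0.02. miR-30b-5p rose by 0.44 on the log2 scale (SE 0.10), with 61.8 ± 4.52 CPM in EV and 83.8 ± 1.45 in KO (SD, n = 3 each) and an edgeR adjusted p of 0.0285. miR-30c-5p rose from 440.0 ± 62.99 to 585 ± 13.4 CPM, by 0.41 on the log2 scale (SE 0.10) with an edgeR adjusted p of 0.0314. miR-455-5p fell, with 130 ± 16.2 CPM in EV and 83.9 ± 1.33 in KO (edgeR adjusted p = 0.00777). miR-30b-5p and miR-30c-5p lost their calls in 8 and 6 of 16 other fits, with log2 changes of 0.29 and 0.27 by library size alone. Single-library omissions that ended both calls were those of EV 1, EV 2, KO 1, KO 2 and KO 3 (log2 0.39, 0.46, 0.44, 0.46 and 0.43 for miR-30b-5p, and 0.33, 0.37, 0.40, 0.44 and 0.40 for miR-30c-5p). Of 11 listed as restraining brown fat, 9 were tested, and miR-34a-5p, a p53 target, was the only one called, rising by 0.79 on the log2 scale (edgeR adjusted p = 0.0022), and by 0.64 with library size alone, where it was not called (edgeR adjusted p = 0.0639). The median of that list was 0.03. Over all tested microRNAs the median was -0.01.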

How the data were processed

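Small RNA of 3 EV and 3 KO libraries was sequenced after adaptor ligation and gel size selection, per the labels' protocols. Bowtie, mm10 and DESeq 1.8.3 are named in the submitters' processing notes. The rule for reads that match several microRNAs and the miRBase release are not given in the sources used here. Deposited counts are whole reads per mature microRNA, without molecular identifiers that the labels mention. The TPM values deposited by the authors equal counts scaled to 1000000 per library (largest difference 3.49e-10) and were not tested. The authors' deposited table of 78 microRNAs gives mean signal per group, log2 fold change and p-value, and was used only to look up members.

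Counts were tested with edgeR 4.0.16 in R 4.3.3 (TMM, filterByExpr with minimum count 10 and minimum total 15, quasi-likelihood F test). Arm ratios (0.5 added to each count) were tested with limma 3.58.1 over 133 hairpin names. Alternatives used DESeq2 1.42.0, limma-voom, other scalings and filters, a replicate block and left-out libraries. The fits were tested on simulated data. Libraries of a group differed beyond counting noise. Chi-square on 459 degrees of freedom ran from 9040 for KO 1 and KO 3 to 200300 for EV 1 and EV 3.

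The members, lists and tests were chosen with earlier results of these data known. Named are all members, called microRNAs of the brown-fat lists, and the 3 nearest profiles, among microRNAs of at least 10 CPM, to the most abundant member of each cluster and to miR-365-3p.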

Additional observations from a re-analysis of the deposited data

How the results depend on the processing

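No member was called in any of the 16 other fits (DESeq2 gave an adjusted p for only 2 of the 7), nor a cluster sum in its 16 or an arm ratio in its 10. The 4 permutation ratios, computed in 9 other settings, cannot pass 0.05 by design. The numbers of all microRNAs called were 5 with library size alone, 56 without the filter, 88 without EV 3 and KO 2, and 15 to 59 with 1 library left out. The signs of changes near 0 turned. With library size alone the log2 change was -0.093 for miR-193a-3p, -0.062 for miR-365-2-5p and -0.16 for the chromosome 11 cluster, while library sizes that leave out miR-21a-5p gave -0.027 for miR-193a-3p and -0.090 for the chromosome 11 cluster. That cluster was at -0.019 without the filter. With library size alone the sign did not turn for miR-193b-3p (-0.23), miR-365-3p (-0.15) and the chromosome 16 cluster (-0.18), but each lay further below 0. With at least 10 CPM in 3 libraries, which 5 members and both arm ratios did not pass, miR-365-3p was at 0.000153 and the chromosome 16 cluster at 0.0077. Without EV 3 and KO 2 the values were -0.12 for miR-193a-3p, 0.19 for miR-365-3p, -0.079 for the chromosome 11 cluster and -0.040 for the cluster ratio. With 1 library left out they ran from -0.100 to 0.300 for miR-193a-3p, -0.16 to 0.029 for miR-193b-3p, -0.047 to 0.22 for miR-365-2-5p, -0.13 to 0.10 for miR-365-3p, 0.198 to 0.496 for miR-193b-5p, -0.162 to -0.0633 for miR-193a-5p, 0.105 to 0.201 for miR-365-1-5p, -0.341 to -0.0411 for the miR-193a arm ratio, -0.067 to 0.10 for the chromosome 11 cluster and -0.090 to 0.079 for the chromosome 16 cluster. The miR-193b arm ratio ran from 0.294 to 0.486 and the ratio of miR-193a-5p to miR-193b-5p from -0.630 to -0.304. The cluster ratio ran from -0.051 to 0.072, miR-193a-3p to miR-193b-3p from -0.073 to 0.33, and miR-365-2-5p to miR-365-1-5p from -0.22 to 0.12. The cause was not tested. The replicate numbers share only a number (same-number correlations of 0.259, -0.115 and -0.247). EV 1, EV 2 and EV 3 correlated best with KO 3, KO 1 and KO 2, so none of them with its own number. With the replicate block 0 members and 34 of all microRNAs were called. No cluster sum or arm ratio was called with this block, and miR-30b-5p among the list members was not called (edgeR adjusted p = 0.0619). Depth limits the arms with 15 to 39 reads per library most.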
